A study of Mus musculus with 2 samples.

Results

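The PI3K, Akt, mTOR and AMPK pathway was followed through 41 genes, chosen by name, out of the 41592 genes in the deposited table. They were looked up by Ensembl gene identifier, and each of the 41 matched 1 row. They cover PI3K and its phosphatases, Akt, the TSC and mTOR complexes, the amino acid sensors on the lysosome, and AMPK. RNA-seq was done on C57BL/6 mice at 6 to 8 weeks of age, on CD4+ T cells that had been sorted from spleen and lymph nodes into a pair of populations. All mice carried Foxp3 ΔCNS1-Cre and R26-YFP, that is, Cre under Foxp3 regulatory DNA lacking the CNS1 element, and a YFP reporter at Rosa26 that stays on in any cell where Cre has acted and in its progeny. One population was Thy1.1-negative and YFP-positive, the other Thy1.1-positive and YFP-positive, and there was no YFP-negative control. The series compares thymus-derived regulatory T (Treg) cells with precursors of cells that lose Foxp3, but its design text gives both the same markers, so the populations are named here by their sample titles. Below, the Thy1.1-YFP+ sample is called the negative library and the Thy1.1+YFP+ sample the positive library. How many mice were pooled, and which gene the Thy1.1 marker reports, is not given in the sources used here.

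Each population was 1 library, so no difference below has a replicate check or a p-value, and variation between animals, sorts and library preparations is not measured. The libraries held 18536339 (negative) and 18600581 (positive) counted reads. Levels are FPKM, fragment counts divided by gene length and by the counted reads of the library. Comparisons of level between different genes, and shares within a family, therefore also rest on the length used for each gene. Ratios are negative over positive FPKM, with the 95% counting interval of these libraries in brackets, which covers the counting of reads only and treats PCR copies as separate reads. The labelled cell type matched its markers: Cd4 stood at 471 FPKM in the negative and 327 FPKM in the positive library, Cd3e at 292 and 248 FPKM, and Foxp3 at 158 and 237 FPKM. Of 8 B cell markers 2 had a mean of at least 1 FPKM, and their summed level was 9.11 and 6.91 FPKM. The 4 dendritic cell markers summed to 0.654 and 0.403 FPKM. The 5 myeloid markers summed to 14.1 and 9.85 FPKM: Cd68 was level, at 8.86 and 9.11 FPKM, while Itgam stood at 4.17 against 0.272 FPKM and Fcgr3 at 0.621 against 0.143 FPKM. The 3 NK cell markers summed to 4.31 and 3.66 FPKM and differed in direction. Klrb1c stood at 2.08 against 0.445 FPKM, Eomes at 2.22 against 3.00 FPKM and Ncr1 at 0 against 0.218 FPKM. The 8 markers of cycling cells all differed by 2-fold or more, the negative library being higher, with a sum of 157 FPKM against 24.3 FPKM. The part of these markers of other and of cycling cells in the differences below was not tested.

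In T cells this pathway turns antigen, costimulation, cytokines and nutrients into growth. Class I PI3K makes the lipid that brings Akt to the membrane; Akt inactivates the TSC complex, which frees the small GTPase Rheb to switch on mTORC1. Amino acids act in parallel through the Rag GTPases, which Ragulator anchors to the lysosome and which bring mTORC1 to Rheb. AMPK, the sestrins and Ddit4 hold the pathway back when energy or nutrients are short or the cell is stressed. Treg cells are known to need mTORC1 for their suppressive function and to lose stability when PI3K and Akt signalling runs unchecked. The pathway works mainly through phosphorylation, which transcript levels do not measure.

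Promoter sequence is shown for the 4 Rag and Ragulator genes with the widest differences between the libraries, of which Rragd was lower and the others higher in the negative library, and for the stress brake Ddit4, which had the highest difference of the members. Each stretch runs from 250 bases before to 50 bases after the annotated start, 5′ to 3′ on the gene's strand, from RefSeq on GRCm38.p6, a later build than the mm9 used for the expression values. Capitals mark an E-box (CACGTG, the core bound by Myc and by the lysosomal regulators Tfeb and Tfe3), a Foxo site (GTAAACA) or a hypoxia response element (ACGTGC), searched on both strands; the last can overlap an E-box.
Rragd, chr4:32982748-32983047, plus strand: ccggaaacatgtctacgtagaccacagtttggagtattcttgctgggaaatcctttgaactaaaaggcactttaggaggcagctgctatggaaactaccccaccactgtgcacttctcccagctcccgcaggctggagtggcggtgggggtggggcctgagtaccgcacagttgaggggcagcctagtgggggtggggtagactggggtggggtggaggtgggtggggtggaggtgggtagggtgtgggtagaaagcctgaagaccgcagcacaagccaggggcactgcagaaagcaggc
Lamtor4, chr5:138255232-138255531, plus strand: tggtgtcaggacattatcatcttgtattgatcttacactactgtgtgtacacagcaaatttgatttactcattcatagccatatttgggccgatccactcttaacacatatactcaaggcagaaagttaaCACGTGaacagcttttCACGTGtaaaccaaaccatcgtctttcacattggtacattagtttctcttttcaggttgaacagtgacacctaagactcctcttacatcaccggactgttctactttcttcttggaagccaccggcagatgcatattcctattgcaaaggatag
Rragc, chr4:123917183-123917482, plus strand: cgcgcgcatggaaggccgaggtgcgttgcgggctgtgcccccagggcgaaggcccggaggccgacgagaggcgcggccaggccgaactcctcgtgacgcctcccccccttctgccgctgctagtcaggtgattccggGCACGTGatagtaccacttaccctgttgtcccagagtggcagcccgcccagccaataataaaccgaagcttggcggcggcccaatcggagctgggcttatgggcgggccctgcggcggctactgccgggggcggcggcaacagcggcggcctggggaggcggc
Lamtor5, chr3:107278608-107278907, plus strand: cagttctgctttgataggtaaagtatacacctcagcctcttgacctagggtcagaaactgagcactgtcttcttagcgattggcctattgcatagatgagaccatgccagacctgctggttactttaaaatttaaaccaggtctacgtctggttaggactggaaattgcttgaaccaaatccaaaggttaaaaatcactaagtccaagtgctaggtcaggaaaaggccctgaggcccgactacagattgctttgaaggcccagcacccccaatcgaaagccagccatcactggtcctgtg
Ddit4, chr10:59951721-59952020, minus strand: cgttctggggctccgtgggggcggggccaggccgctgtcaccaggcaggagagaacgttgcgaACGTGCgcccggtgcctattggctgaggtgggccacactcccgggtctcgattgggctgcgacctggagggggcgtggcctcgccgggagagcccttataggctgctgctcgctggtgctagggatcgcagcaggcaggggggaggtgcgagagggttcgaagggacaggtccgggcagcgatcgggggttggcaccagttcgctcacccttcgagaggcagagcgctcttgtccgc

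Lamtor4 holds 2 E-boxes in this window and Rragc holds 1, which overlaps a hypoxia response element; the Ddit4 window holds a hypoxia response element, and those of Rragd and Lamtor5 hold none of the 3 motifs. Of the 6 Rag and Ragulator members that were higher in the negative library, 3 have an E-box (Rragc, Lamtor4 and Lamtor1) and 3 do not (Lamtor5, Rraga and Lamtor2). Windows were found for 40 of the 41 members. An E-box was in 5 of these 40 genes (Fnip1, Lamtor1, Lamtor4, Rheb and Rragc), or 12.5%, against 8.09% of all 27025 genes with a window. A Foxo site was in 4 (Akt1, Pik3cg, Sesn1 and Stk11), against 4.05% of all genes, and a hypoxia response element was in 4 (Ddit4, Lamtor1, Rragc and Stk11), against 6.68%. A match describes letters in the window and shows no binding.

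All 41 members were expressed, between 3.15 and 209.9 FPKM, and all passed the filter of a mean of at least 1 FPKM that left 12820 genes of the series. Most were close in level between the libraries: none of the 41 differed 2-fold on the log2(FPKM + 1) scale, where 3.08% of all tested genes did, and 1 differed 1.5-fold, where 9.66% did. That gene was Rragd, which was lower in the negative library, as 3.85% of all tested genes were by that rule. The differences (log2(FPKM + 1), negative minus positive library) ran from -0.85 for Rragd to 0.56 for Ddit4, with a median of 0.05 against 0.03 over all tested genes. Counted by sign, 26 members lay above 0 and 15 below; 55.1% of all tested genes lay above 0. The counting interval lay above 1 for 17 members and below 1 for 12, and included 1 for the other 12. Across all tested genes the interval was apart from 1 for 46.5%, with 27.3% above and 19.2% below. That share grows with reads: it was 59.6% among tested genes whose mean reads lay between the quartiles of the members, 729.5 and 3089 reads. Rescaled by the upper quartile, which moved the median difference of all tested genes up by 0.23, the interval was above 1 for 31 members and below 1 for 3, and above 1 for 7642 and below 1 for 631 of all tested genes. Of the intervals apart from 1, those above it were then 91.2% for members and 92.4% for all tested genes. By that scaling 7 members, or 17.1%, differed 1.5-fold, against 15.2% of all tested genes. In such bulk libraries, fewer cells that express a gene and less of its RNA per cell cannot be told apart.

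**Figure D1:**
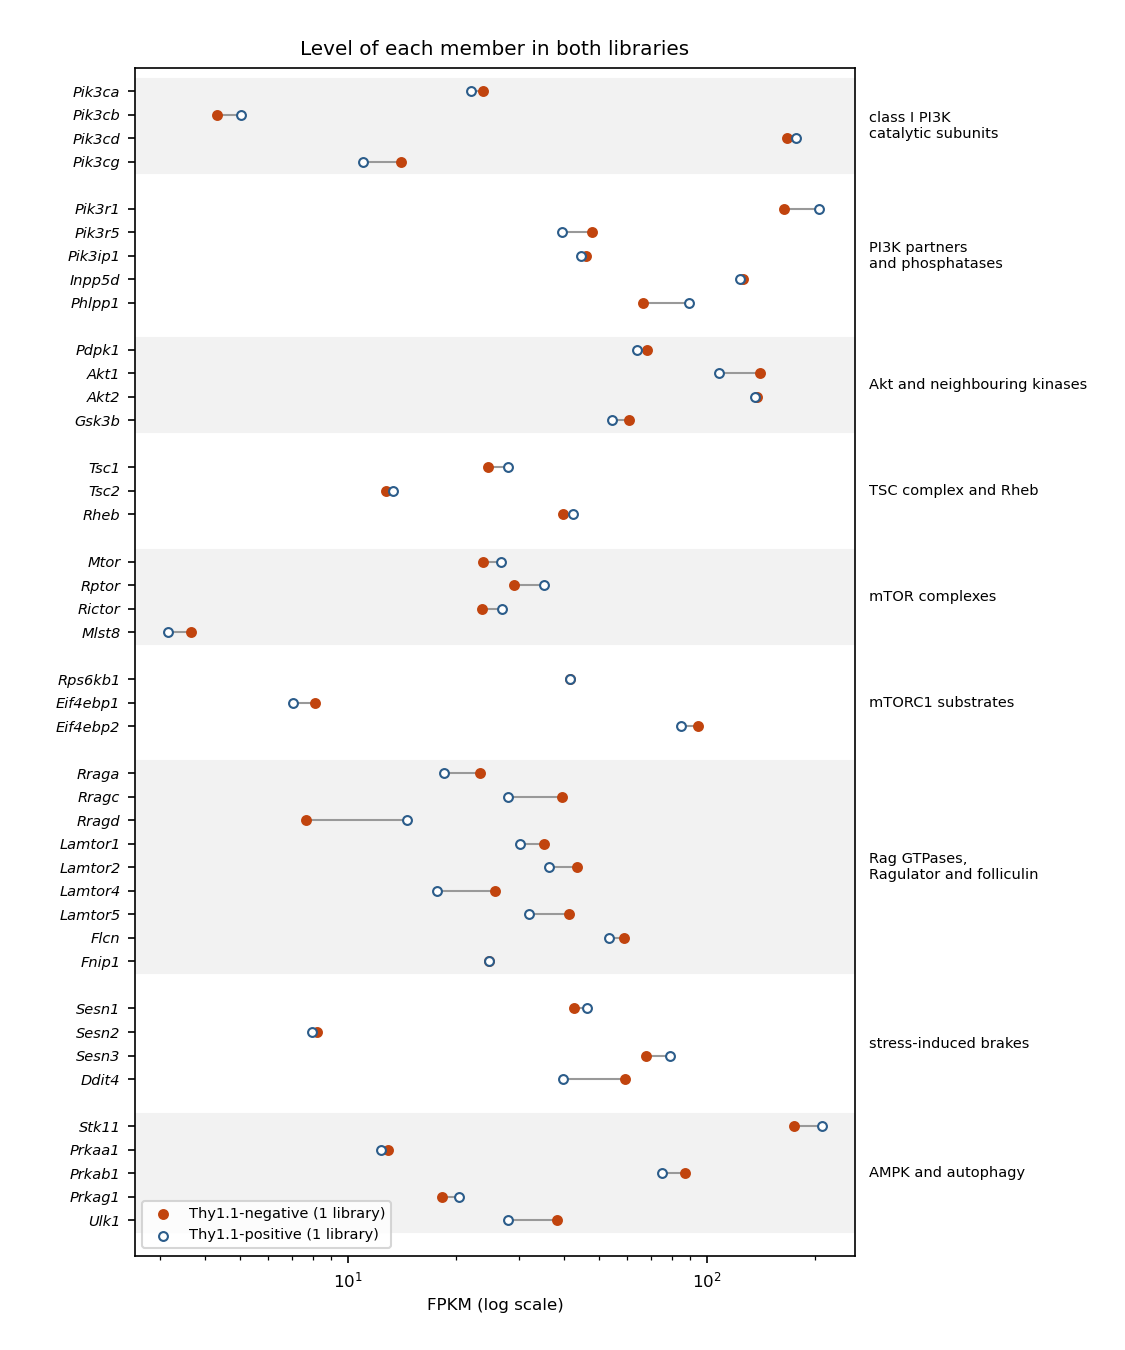
Level of each of the 41 members in the negative library (filled) and the positive library (open), in FPKM on a log axis, grouped by role. Most pairs of points nearly touch; Rragd, at 7.63 and 14.6 FPKM, is the pair farthest apart.

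Among the catalytic subunits of class I PI3K, the leukocyte subunit Pik3cd was by far the most abundant, at 168 FPKM in the negative and 177 FPKM in the positive library, a ratio of 0.947 (0.918 to 0.977). It made up 79.9% and 82.3% of the summed FPKM of the 4 subunits. The ubiquitous subunits followed with Pik3ca at 23.8 and 22.0 FPKM and Pik3cb at 4.31 and 5.03 FPKM. Pik3cg, a subunit activated by G protein-coupled receptors such as chemokine receptors, stood at 14.1 and 11.0 FPKM, a ratio of 1.28 (1.17 to 1.41). Pik3r5, the regulatory partner of that same subunit, was also higher in the negative library, at 48.0 against 39.4 FPKM and a ratio of 1.22 (1.14 to 1.31). Pik3r1, the regulatory subunit that stabilises and restrains the receptor-coupled catalytic subunits, went the other way, at 165 against 206 FPKM, a ratio of 0.799 (0.773 to 0.825). So Pik3cg and its partner Pik3r5 were both higher in the negative library. Of the others, Pik3cd, Pik3r1 and Pik3cb were lower, Pik3cb at a ratio of 0.858 (0.737 to 0.998). Pik3ca was higher, at a ratio of 1.08 (1.03 to 1.14). After rescaling by the upper quartile, the differences of Pik3cd and Pik3cb were 0.18 and 0.03.

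The members Pik3ip1 and Inpp5d, brakes on PI3K at the membrane, were level. Pik3ip1, a transmembrane inhibitor of PI3K, stood at 46.1 and 44.6 FPKM, and Inpp5d, which encodes the lipid phosphatase SHIP-1, at 127 and 124 FPKM; both intervals included 1. Phlpp1, a phosphatase that removes an activating phosphate from Akt and is known to be abundant in Treg cells, was the brake with the lowest ratio, at 66.4 against 89.2 FPKM, a ratio of 0.745 (0.710 to 0.781). Its difference was -0.42 and stayed below 0 under each of the 4 rescalings tried. That follows from its size, as the largest upward log2 factor was 0.26.

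Akt1 and Akt2, the kinases at the centre of the pathway, differed in pattern. Akt1 stood at 141 FPKM in the negative and 108 FPKM in the positive library, a ratio of 1.30 (1.22 to 1.38). Akt2 was level, at 138 and 137 FPKM, with an interval of 0.966 to 1.06. By FPKM, Akt2 was thus the more abundant of the pair in the positive library, while in the negative library their levels were nearly equal. This ranking rests on the lengths behind the FPKM, 965 bases for Akt1 and 1527 for Akt2. By reads Akt2 was ahead in both libraries, with 3904 against 2516 in the negative and 3879 against 1947 in the positive library. Pdpk1, which phosphorylates Akt, stood at 68.3 and 64.1 FPKM, and Gsk3b, a kinase that Akt inhibits, at 60.6 and 54.3 FPKM, a ratio of 1.12 (1.06 to 1.17).

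The members Tsc1 and Tsc2 of the TSC complex, and Rheb, the switch just above mTORC1, were all slightly below 0. Tsc1 stood at 24.6 and 28.0 FPKM, a ratio of 0.878 (0.825 to 0.935), while the intervals of Tsc2, at 12.8 and 13.3 FPKM, and of Rheb, at 39.9 and 42.5 FPKM, included 1. The kinase Mtor and the complex scaffolds Rptor and Rictor were lower too. Mtor stood at 23.8 against 26.7 FPKM, a ratio of 0.893 (0.830 to 0.961), and Rptor, the scaffold of mTORC1, at 29.0 against 35.3 FPKM, a ratio of 0.821 (0.766 to 0.880). Rictor, the scaffold of mTORC2, stood at 23.7 against 26.9 FPKM, a ratio of 0.879 (0.843 to 0.917). The upper-quartile scaling put Tsc1, Tsc2, Rheb, Mtor and Rictor above 0, and Rptor at -0.026. Mlst8, shared by both complexes, was the least abundant member, at 3.66 and 3.15 FPKM from 228 and 197 reads, and its interval included 1.

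The direct substrates of mTORC1 were level or a little higher in the negative library. Rps6kb1, the kinase that phosphorylates ribosomal protein S6, stood at 41.7 FPKM in both. Eif4ebp2, a repressor of translation initiation that mTORC1 inactivates, stood at 94.5 and 84.6 FPKM, a ratio of 1.12 (1.08 to 1.16). Its paralogue Eif4ebp1 stood at 8.08 and 7.01 FPKM, an interval of 0.903 to 1.47 from 147 and 128 reads. Eif4ebp2 made up 92.1% and 92.3% of the summed FPKM of the pair.

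**Figure D2:**
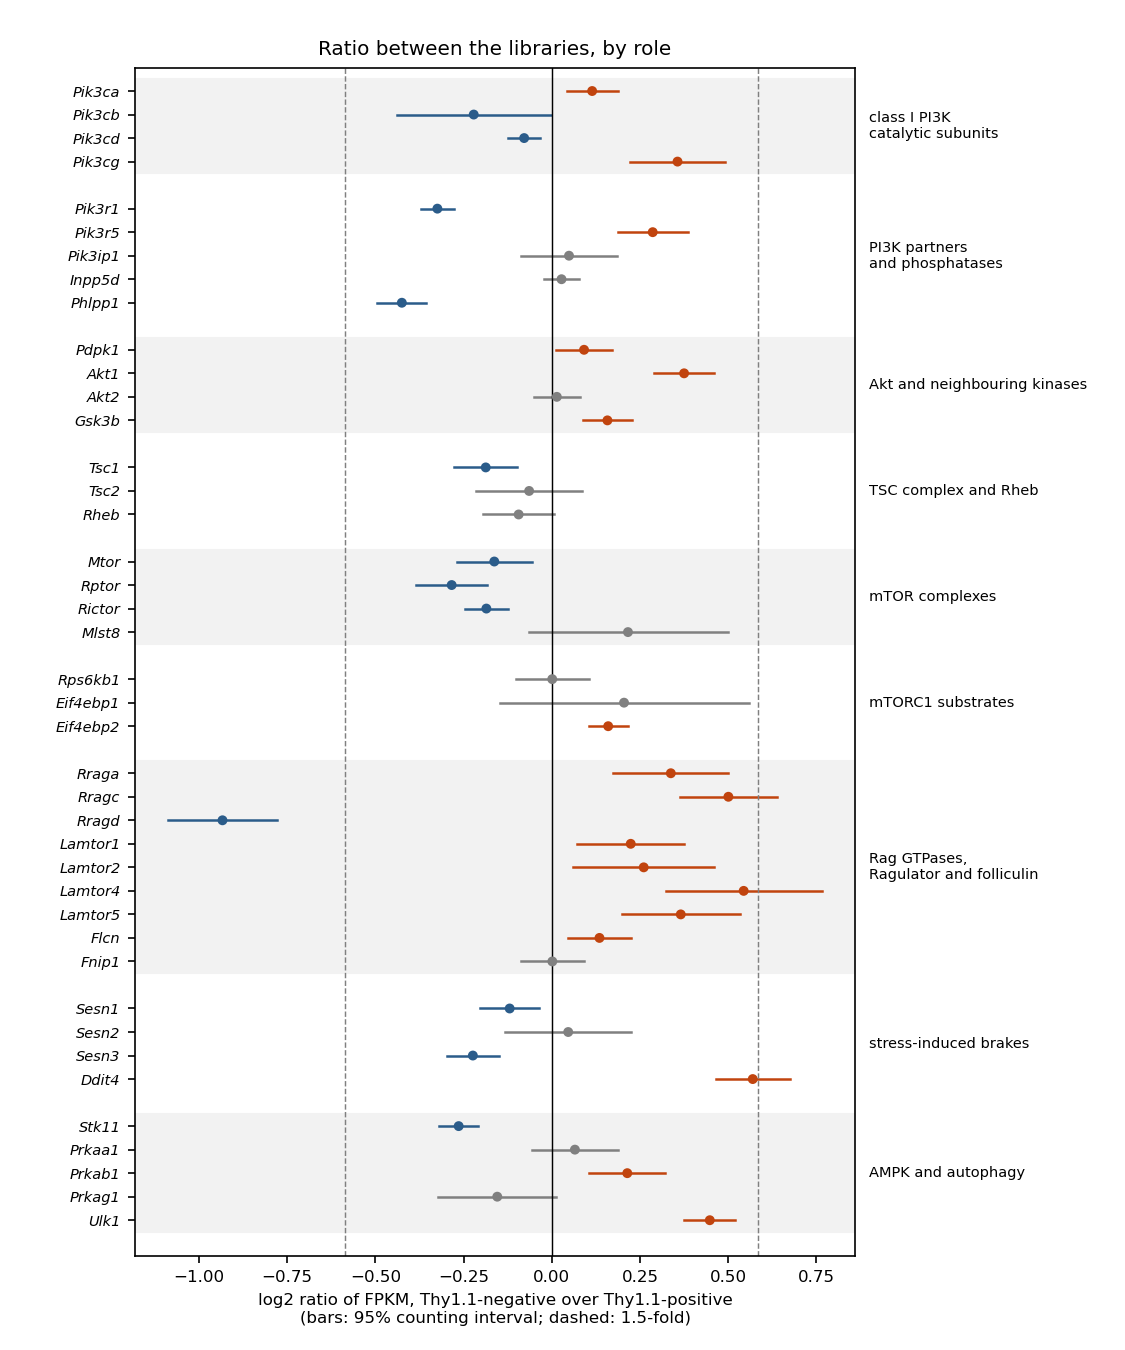
Log2 ratio of FPKM, negative over positive library, for each member, with its 95% counting interval as a bar; red is higher, blue lower and grey includes a ratio of 1, and dashed lines mark 1.5-fold. The Rag and Ragulator genes lie to the right except Rragd, whose interval of 0.470 to 0.583 lies beyond the dashed line on the left.

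The amino acid sensing arm held the widest difference of the 41 genes, that of Rragd. Next to it, the other 6 Rag and Ragulator members all lay above 0. The arm as a whole was not shifted one way: of 17 further amino acid sensing genes outside the 41, 8 lay above 0 and 9 below. Their median difference was -0.02, and the interval lay above 1 for 5 of these 17 and below 1 for 7. Rragd, a RagC-type GTPase, stood at 7.63 FPKM in the negative and 14.6 FPKM in the positive library, from 524 and 1004 reads. Its ratio was 0.524 (0.470 to 0.583), lower than 98.1% of all tested genes by the difference. Rragc, its paralogue, stood at 39.4 against 27.9 FPKM, a ratio of 1.41 (1.29 to 1.56), so the pair differed in opposite directions. Rragd made up 16.2% of the summed FPKM of the pair in the negative library and 34.4% in the positive library, and Rragc was 5.16 and 1.91 times as abundant as Rragd. By contrast the RagA-type pair kept its composition: Rraga stood at 23.3 and 18.5 FPKM, a ratio of 1.26 (1.13 to 1.41), and made up 85.6% and 85.7% of the summed FPKM of Rraga and Rragb.

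The 4 Ragulator subunits among the members were all higher in the negative library, each with an interval above 1. Lamtor4 stood at 25.8 against 17.7 FPKM, a ratio of 1.46 (1.25 to 1.70), and Lamtor5 at 41.3 against 32.0 FPKM, a ratio of 1.29 (1.15 to 1.45). Lamtor2 stood at 43.5 against 36.3 FPKM, and Lamtor1, the subunit that anchors the complex in the lysosomal membrane, at 35.3 against 30.2 FPKM. The remaining subunit, Lamtor3, is not among the 41 and stood at 19.9 against 14.7 FPKM, a ratio of 1.35 (1.17 to 1.55). The 4 Lamtor members had a median difference of 0.30, and the 6 Rag and Ragulator members other than Rragd one of 0.34. Each of these 6 stayed above 0 under the 4 rescalings, which move all genes nearly alike, by log2 factors of -0.036 to 0.26. The lowest of the 6 differences was 0.22, so the rescalings could not turn the sign of any of these 6 genes. These transcripts are short: with all tested genes split evenly into 3 bands by length, the 4 Lamtor genes fell in the shortest band, up to 1250 bases, where the median difference of all genes was 0.04 and 56.8% lay above 0. All 8 members in that band lay above 0, with a median of 0.24, while 10 of the 20 members in the longest band did; the part of length in these differences was not tested. Folliculin, encoded by Flcn, acts with Fnip1 on RagC and RagD; Flcn stood at 58.7 and 53.5 FPKM, a ratio of 1.098 (1.03 to 1.17), and Fnip1 was level at 24.7 FPKM in both.

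**Figure D3:**
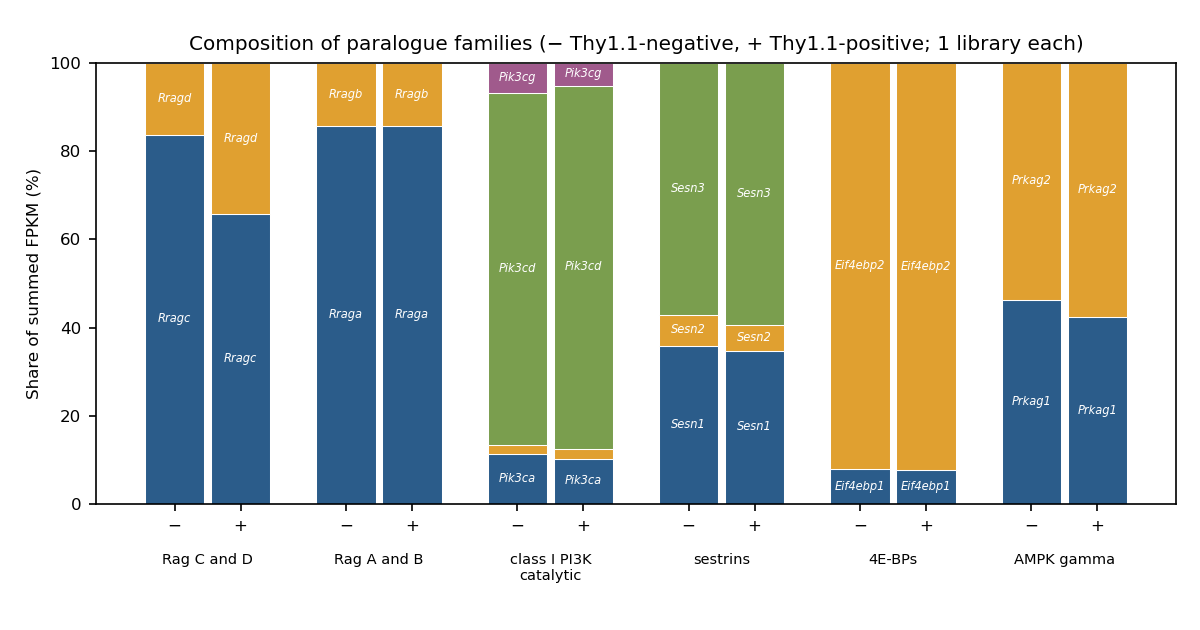
Share of each gene in the summed FPKM of its paralogue family, in percent, for the negative (−) and positive (+) library. The share of Rragd in the Rag C and D pair is 16.2% and 34.4%, while the Rag A and B pair is nearly the same in both libraries.

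The stress-induced brakes differed in direction. Ddit4, also called Redd1, which restrains mTORC1 through the TSC complex under hypoxia and other stress, had the highest difference of the 41, at 59.1 FPKM in the negative and 39.9 FPKM in the positive library. Its ratio was 1.48 (1.38 to 1.60), higher than 93.6% of all tested genes by the difference and just short of 1.5-fold. The sestrins carry amino acid and stress signals to the Rag GTPases. Sesn3 stood at 67.7 against 79.1 FPKM, a ratio of 0.856 (0.813 to 0.902), and Sesn1 at 42.6 against 46.3 FPKM, a ratio of 0.921 (0.869 to 0.975); both signs turned after rescaling by the upper quartile. Sesn2 was the scarcest, at 8.21 and 7.95 FPKM, with an interval that included 1. Sesn3 made up 57.1% and 59.3% of the summed sestrin FPKM.

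In the AMPK arm, the upstream kinase and the downstream autophagy kinase differed in opposite directions while the catalytic subunit was level. Stk11, which encodes the AMPK-activating kinase LKB1, was the most abundant member in the positive library, at 175 against 209.9 FPKM, a ratio of 0.833 (0.801 to 0.866), and its difference was -0.0071 when scaled by the upper quartile. Prkaa1, the catalytic alpha subunit, stood at 12.98 and 12.4 FPKM with an interval of 0.962 to 1.14, and made up 99.9% of alpha subunit FPKM in both libraries. Prkab1, a beta subunit, stood at 87.1 against 75.1 FPKM, a ratio of 1.16 (1.08 to 1.25), and Prkag1, a gamma subunit, at 18.3 against 20.4 FPKM with an interval of 0.800 to 1.009, while by the upper quartile its difference was 0.10. Ulk1, the kinase that starts autophagy and that AMPK activates and mTORC1 inhibits, stood at 38.2 against 28.0 FPKM, a ratio of 1.36 (1.30 to 1.43).

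Activators and brakes were then compared as classes, with 21 and 15 genes; 5 genes whose role depends on context (Pik3r1, Flcn, Fnip1, Ulk1 and Gsk3b) were put in neither. Of the activators 14 lay above 0, with a median difference of 0.11 and a range of -0.85 to 0.52. Of the brakes 8 lay above 0, with a median of 0.03 and a range of -0.42 to 0.56. The medians differed by 0.08, a gap that was -0.02 once the 7 Rag and Ragulator genes were left out of the activators and 0.17 once Eif4ebp1 and Eif4ebp2 were left out of the brakes. Both classes thus spanned 0, with Rragd at the bottom of the activators and Ddit4 at the top of the brakes.

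**Figure D4:**
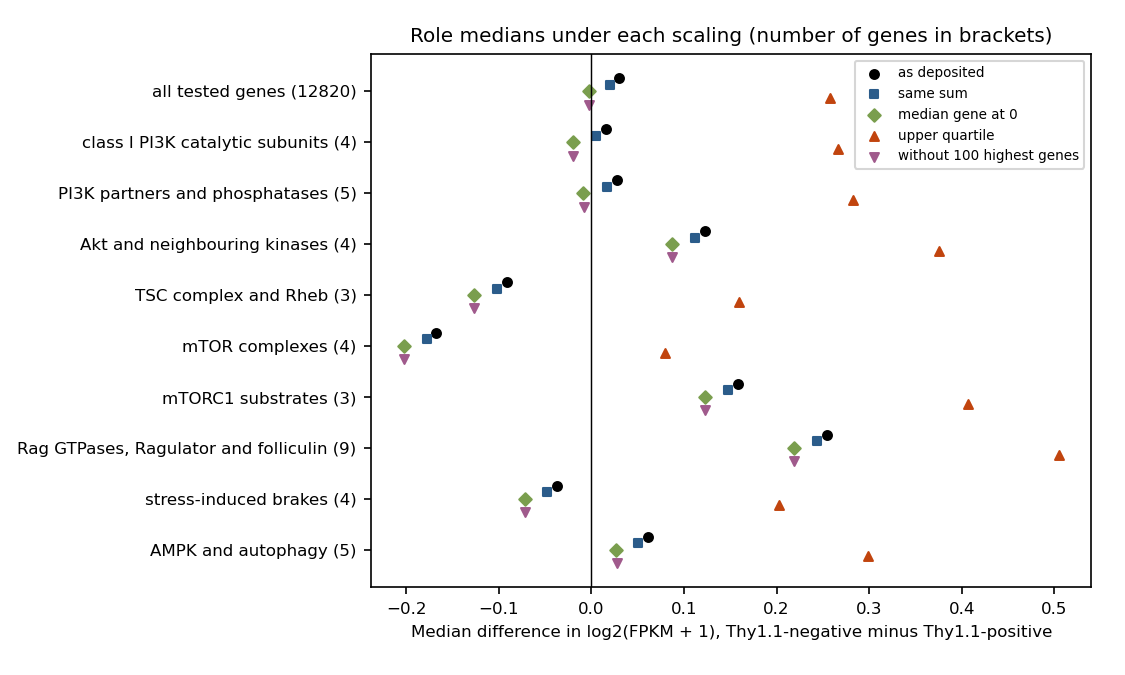
Median difference in log2(FPKM + 1) for all tested genes and for each role, as deposited and under 4 rescalings. Under each scaling the mTOR complexes have the lowest median of the roles and the Rag, Ragulator and folliculin genes the highest, and the upper quartile shifts every median up.

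The wider pathway was examined through 65 further genes, 60 of them with a mean of at least 1 FPKM. Of these 60, 34 lay above 0 and 26 below, with a median difference of 0.02, and 2 differed 1.5-fold, or 3.33%, a count that ran from 0 to 8 across the alternatives tried. Prr5l, a subunit of mTORC2, stood at 0.655 against 2.15 FPKM, a ratio of 0.305 (0.166 to 0.532) from 17 and 56 reads. Cab39l, a partner of LKB1, stood at 8.86 against 5.51 FPKM, a ratio of 1.61 (1.40 to 1.86). The Foxo factors, which Akt excludes from the nucleus, were nearly level, with Foxo1 at 118 and 111 FPKM and Foxo3 at 46.7 and 49.7 FPKM. The direction was mixed among 6 genes that depend on Foxo factors or Klf2 in T cells. Ccr7, the lymph node homing receptor, stood at 270.2 against 519.6 FPKM, Klf2 at 106 against 130.3 FPKM and Il7r at 51.1 against 58.3 FPKM. Ccng2 stood at 54.0 and 54.3 FPKM, Cdkn1b at 91.2 and 84.6 FPKM and S1pr1 at 148 and 134 FPKM.

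Some members rest on reads that may be shared. In the GENCODE annotation 9 of the 41 share exon bases with another gene, and 3 share over 10% of them: Prkag1 with 43.7%, Mlst8 with 22.5% and Lamtor1 with 18.7%. Whether reads were counted by strand is not given in the sources used here, so for these 3 genes reads from the partner cannot be told apart.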

How the data were processed

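RNA-seq libraries of 2 sorted CD4+ T cell populations were used, 1 per population. The authors deposited FPKM per Ensembl gene, with 1 column for each population, matched to the samples by the P (positive) and N (negative) in its name. Per the submitters' processing notes, the tools were Bowtie2 2.2.3, TopHat2 2.0.12 and HTSeq 0.6.1 with build mm9; their settings were not given in the sources used here. Symbols (GENCODE M21) were found for 40254 of 41592 identifiers.

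No count model was used. Value ratios between the libraries were ratios of whole numbers times 1 constant, which, written as a fraction, gave both library totals. Among the whole-number multiples possible for a gene, the one was taken whose implied length was whole (within 1e-04 bases) and nearest the mean annotated transcript length. For 21 of the 41 members that length was within 1 base of it; for the others, reads and intervals rest on the nearest length. Over all genes, the reads recovered in this way came to 100.2% and 100.1% of the library totals. Intervals are exact Clopper-Pearson intervals at 95%. The recovery was tested on simulated data in which every gene had its rounded mean annotated length. That test therefore does not cover genes whose length departs from it. Differences used a pseudocount of 1, which understates changes of low genes, and a minimum mean of 1 FPKM.

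The 41 members, the lists, their roles and the naming rule (all members, Foxo1, Foxo3, pathway genes past 1.5-fold and Foxo-dependent genes) were chosen with earlier results of these data known; some genes it names are not reported here. The motifs, the promoters shown, Lamtor3 and Prkag2 were chosen after the values were seen. The alternatives tried were pseudocounts of 0.1 and 5, a minimum of 0 or 5 FPKM, 4 rescalings (to the same sum, to the median gene, to the upper quartile, without the 100 highest genes) and other assignments of activators and brakes. Python 3.11.15 and SciPy 1.17.1 were used.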

Additional observations from a re-analysis of the deposited data

How the results depend on the processing

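No paired analysis was possible because each population has 1 library, and for the same reason no replicate could be left out. The count of members past 2-fold stayed at 0 under every alternative run, and the count past 1.5-fold stayed at 1 except with the upper quartile, which gave 7: Rragd lower, and Akt1, Rragc, Lamtor4, Lamtor5, Ddit4 and Ulk1 higher. The share of all tested genes past 1.5-fold was then 15.2%, and the median difference of members was 0.30 against 0.26 for all tested genes. The number of members with an interval apart from 1 ranged from 28 to 34. As deposited and under the rescalings it was 70.7% to 82.9% of members, against 46.1% to 64.5% of all tested genes, a share that grows with reads. The gap between activators and brakes was -0.0197 without the Rag and Ragulator genes and above 0 otherwise, up to 0.17 without Eif4ebp1 and Eif4ebp2. The count of other pathway genes past 1.5-fold was 4 with a pseudocount of 0.1, 0 with a pseudocount of 5, 8 by the upper quartile, and 1 with a minimum of 5 FPKM, with the median gene at 0 or without the 100 highest genes. The upper quartile turned the sign of Pik3cb (0.0293), Pik3cd (0.177), Tsc1 (0.067), Tsc2 (0.179), Rheb (0.159), Mtor (0.0902), Rictor (0.0686), Sesn1 (0.134), Sesn3 (0.0326), Prkag1 (0.0972), Foxo3 (0.164), Il7r (0.0662) and Ccng2 (0.245), and other rescalings that of Inpp5d, Akt2, Rps6kb1 and Fnip1, whose intervals included 1. For 27 of the 41 members the sign held under all 4 rescalings. The same count was not made over all tested genes, and it follows from the size of the differences and of the scale factors. The upper quartile was taken in each library over its own genes above 0, which were 28107 in the negative and 25709 in the positive library. Its factor on the negative over positive ratio was 1.19, against 0.975 to 0.992 for the other rescalings. Whether the unlike numbers of genes set that factor was not tested, nor was any other cause of the changes in sign. Depth limits Eif4ebp1 most, where the interval spans 24.7% of the ratio to either side, against a median of 6.96% over the members.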
